A study of Mus musculus with 9 samples.

Results

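The 37 genes described here carry out or serve glycolysis, or regulate or answer the hypoxia-inducible factors (HIF). They were chosen by gene symbol: 2 glucose transporters, 3 hexokinases, 3 phosphofructokinases, 3 PFKFB enzymes, 10 other glycolytic enzymes, 6 genes of lactate and pyruvate handling, 4 HIF regulators and 6 HIF targets. All 37 symbols were found among the 35673 in the count table, and all 37 were among the 21341 genes that passed the filter on low counts. RNA was sequenced in bulk from mouse basophils, granulocytes of type 2 immunity, grown for 7 days from wild-type C57BL/6J bone marrow with interleukin-3 (IL-3) at 0.3 ng/mL. Cells bearing CD49b were selected with magnetic particles, and samples of 10000 cells were then treated for 4 h, with 3 libraries a group. Resting cells received PBS and the solvent DMSO. Stimulated cells received 10 ng/mL of IL-3, 10 ng/mL of IL-33 and DMSO. Difamilast cells received both cytokines at those doses, and in place of DMSO they received difamilast at 3 µM. Difamilast blocks phosphodiesterase 4 (PDE4), an enzyme that degrades cyclic AMP. IL-33 is an alarmin that acts through the receptor ST2. Resting cells given difamilast were not analysed here, so the drug was compared only on top of the cytokines. The labels name no low-oxygen condition, and they do not say whether the 3 libraries of a group came from separate cultures or animals.

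Glycolysis splits glucose into pyruvate, which cells either pass to mitochondria or reduce to lactate and export. Hexokinase and phosphofructokinase are among its main points of control, and PFKFB enzymes set the level of the metabolite that activates phosphofructokinase. Under low oxygen HIF1α escapes hydroxylation by prolyl hydroxylases of the EGLN family and degradation through VHL, and it then switches on many glycolytic genes. In activated leukocytes, cytokine and cyclic AMP signals can also act on these genes at normal oxygen.

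Total counts ran from 6261446 to 38098584 per library, so that 1 count equalled 0.0297 to 0.127 CPM. CPM here are counts set against the library's effective total after TMM scaling, which corrects for RNA composition. Levels below are TMM-normalised CPM, and means carry the SD over 3 libraries. The TMM factors were 1.23 to 1.32 in resting libraries and 0.85 to 0.92 in the others; scaling to plain totals would lower each log2 difference of stimulated from resting cells by 0.52 and raise that of difamilast from stimulated cells by 0.02. The 14 basophil markers summed to 11869 to 12962 CPM in resting, 21049 to 22097 in stimulated and 24463 to 25539.8 in difamilast libraries, with 9 higher and 2 lower on stimulation and 2 higher and 2 lower with difamilast. They did not move as a block: the protease Mcpt8 was at 1434 ± 415 (SD, n = 3), 3455 ± 229 and 2802 ± 429 CPM in resting, stimulated and difamilast cells, and Csf2rb at 2884 ± 352, 1984 ± 58.4 and 3311 ± 257. Markers of other cells moved as well: 18 monocyte and macrophage markers summed to 7698 to 9414 CPM in resting, 5890 to 6332 in stimulated and 6416 to 6606 in difamilast libraries, with 10 of the 18 lower and 1 higher on stimulation, and 0 lower and 1 higher with difamilast. The monocyte marker Lyz2 was at 3957 ± 483, 2736 ± 36.3 and 2621 ± 87.9 CPM. Cd14, which is part of the same sum, was at 408 ± 38.5, 267 ± 19.7 and 887 ± 139 CPM. The higher sum with difamilast therefore does not describe the list as a whole. The 10 mast cell markers, of which Cpa3 is also in the basophil list, summed to 1170.1 to 1514, 2523 to 2646 and 2093 to 2489 CPM, with 4 higher and 1 lower on stimulation and 0 higher and 3 lower with difamilast. Of these, Tpsb2 was at 442 ± 130.5, 561 ± 19.6 and 513 ± 16.6 CPM and Cma1 at 155 ± 54, 181 ± 20.2 and 162 ± 10.1, while Mcpt4 was at 0.363 ± 0.135, 0.373 ± 0.285 and 0.176 ± 0.0647. Others moved more: Tph1 was at 55.5 ± 4.78, 304 ± 9.56 and 270.2 ± 24.1 CPM and Slc6a4 at 117 ± 26.7, 443 ± 28.2 and 179 ± 9.86. Kit was at 61.5 ± 15.8, 40.8 ± 2.13 and 31.3 ± 1.89 CPM and Mitf at 22 ± 3.86, 20.1 ± 0.713 and 10.2 ± 1.08. In bulk RNA fewer cells of a type and less RNA per cell cannot be told apart, and the part of other cells in the results below was not tested.

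Promoters of the 4 genes that rose with difamilast, and of Ldha, are shown first, because HIF and the cyclic AMP factor CREB each bind short motifs that can be read in them. In the RefSeq promoters (build GRCm38.p6), 34 of the 37 genes had an entry, with 49 promoters in all. The HIF response element core, ACGTG or GCGTG on either strand, stood within 250 bases before the start in 30 of the 34 genes, or 81.6% of their 49 promoters, against 38.6% of all 32851 promoters. These promoters were also richer in CG, with a median of 14 CG dinucleotides against 6 in all promoters. The E-box CACGTG, which holds ACGTG on both strands, stood in 14.3% of the 49 promoters against 6.02% of all. The cyclic AMP response element core TGACG, on either strand, stood in 18.4% against 17.8%, and in 7 of the 34 genes: Hk2, Pfkfb2, Pfkfb3, Pfkfb4, Ldha, Slc16a3 and Egln3. The full element TGACGTCA stood in 1 of the 34, Ldha. Matches on either strand of TTCNNNGAA, the motif of STAT factors downstream of IL-3, stood in 4.08% against 7.02%. The motifs were chosen with the expression values known, and a match describes letters, not a bound site. In the stretches below, written 5′ to 3′ on the gene's strand, capitals mark the HIF core and the TGACG core, and TGACGTG is where both overlap.
Egln3, chr12:54204035-54204114, minus strand: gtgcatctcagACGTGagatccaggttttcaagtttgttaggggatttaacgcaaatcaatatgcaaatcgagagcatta
Egln3, chr12:54203875-54203934, minus strand: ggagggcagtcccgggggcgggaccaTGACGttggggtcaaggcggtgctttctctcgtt
Hif1a, chr12:73907717-73907816, plus strand: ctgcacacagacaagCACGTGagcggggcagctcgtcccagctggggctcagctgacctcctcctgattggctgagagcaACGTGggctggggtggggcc
Slc16a3, chr11:120948967-120949066, plus strand: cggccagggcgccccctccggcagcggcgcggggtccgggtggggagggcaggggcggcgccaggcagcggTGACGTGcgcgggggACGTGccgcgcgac
Pfkfb3, chr2:11502121-11502220, minus strand: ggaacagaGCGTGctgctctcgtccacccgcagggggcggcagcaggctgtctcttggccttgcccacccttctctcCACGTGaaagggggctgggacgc
Pfkfb3, chr2:11553930-11554029, minus strand: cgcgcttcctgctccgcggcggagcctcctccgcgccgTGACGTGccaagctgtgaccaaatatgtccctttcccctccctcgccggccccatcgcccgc
Ldha, chr7:46845654-46845803, plus strand: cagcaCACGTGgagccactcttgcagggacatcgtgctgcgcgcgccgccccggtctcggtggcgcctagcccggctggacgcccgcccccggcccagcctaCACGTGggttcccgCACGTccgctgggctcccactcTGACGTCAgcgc
Pgk1, chrX:106186930-106186979, plus strand: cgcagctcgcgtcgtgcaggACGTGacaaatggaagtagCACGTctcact
The Slc16a3 stretch and the second Pfkfb3 stretch each hold the fused TGACGTG. The promoter of Hk2, not printed above, also holds it, on the opposite strand. Hk2 had a log2 difference of 0.42 with difamilast that did not pass in the main fit, and it was called in 2 of 17 alternatives. A link between the fused motif and these differences was not tested. Egln3 has its HIF core and its TGACG in separate stretches. The Ldha stretch has 5 matches to the HIF core, with each E-box in it matched on both strands. It also carries the full TGACGTCA at its downstream end. Pgk1, a gene long used as a HIF target, has 2 cores in a short stretch and is shown as a comparison that did not pass the test with either treatment.

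Per kilobase of transcript, which allows levels of different genes to be compared, most steps were dominated by 1 isoform. Among phosphofructokinases the platelet-type gene Pfkp stood at 56.8 CPM per kb in resting, 89.8 in stimulated and 102 in difamilast cells, against 13.9, 12.5 and 17.5 for the liver-type Pfkl and 1.17, 0.387 and 0.694 for the muscle-type Pfkm. Aldoa was at 571, 389 and 463 CPM per kb, the highest of the 37 genes in each group as counted, and Aldoc at 2.41, 1.19 and 1.66. That rank leaves out near-identical copies counted under other symbols. Those of Gapdh held 683 ± 131, 642 ± 37.8 and 715 ± 64.1 CPM, beside 291 ± 55.3, 275 ± 14.3 and 307 ± 37.1 for Gapdh itself. With them Gapdh would rank above Aldoa. Eno1 and Ldha also far exceeded Eno2 and Ldhb: Ldha was at 278, 185 and 248 CPM per kb and Ldhb at 9.17, 3.44 and 4.18. The lactate exporter Slc16a3 (MCT4) was at 57.2, 51.2 and 90.3 CPM per kb, and Slc16a1 (MCT1) at 2.48, 2.52 and 2.96. Hexokinases were the exception, with Hk1, Hk2 and Hk3 at 10.3, 12.1 and 13.8 CPM per kb in resting cells. Their order differed by group, with Hk3 highest in stimulated cells at 10.7 and Hk2 in difamilast cells at 10.2. Of the glucose transporters, Slc2a3 (GLUT3) exceeded Slc2a1 (GLUT1) in stimulated cells only, at 41.9 against 31.8 CPM per kb, and lay below it in resting (17.7 against 27.7) and difamilast cells (19.8 against 40.1). These orders are descriptions, with no test between genes.

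**Figure D1:**
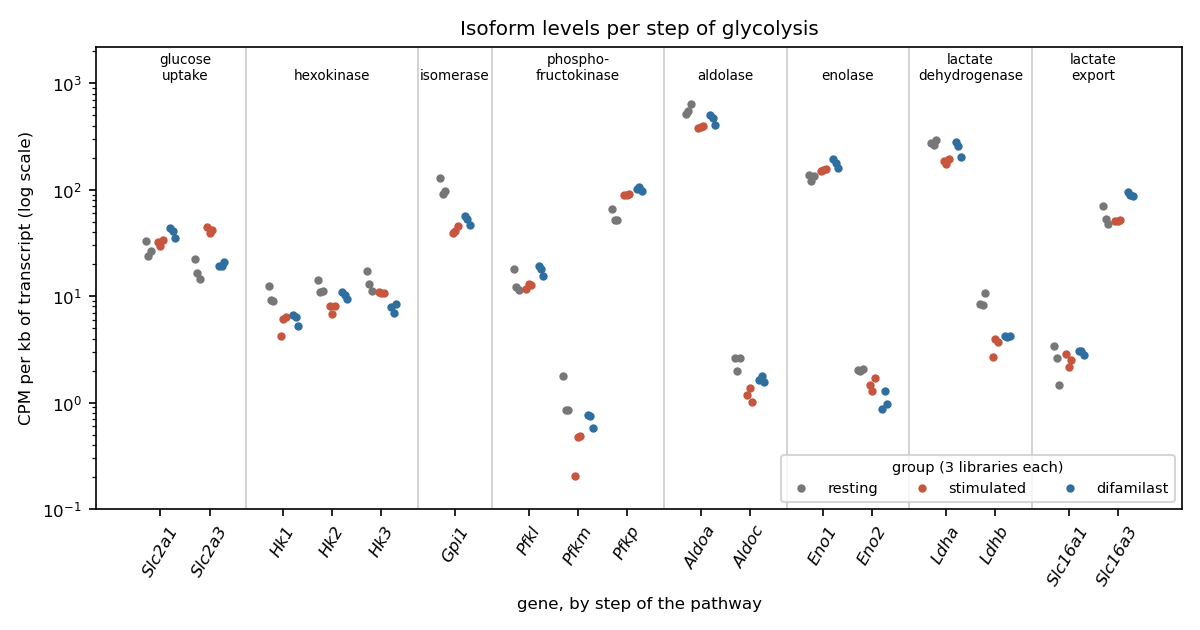
Level of each isoform in CPM per kb of transcript (log axis) by step of the pathway, 1 point per library, 3 libraries a group coloured by group. Aldoa, Eno1, Ldha, Pfkp and Slc16a3 sit far above their sister genes in each group, while Slc2a3 and Slc2a1 swap order in stimulated cells.

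On stimulation with IL-3 and IL-33, 6 of the 37 genes rose and 11 fell, in a comparison that asks how the cytokines alone moved glycolytic and HIF genes. Calls are at an adjusted p under 0.05 in the quasi-likelihood test of edgeR, with the Benjamini-Hochberg adjustment run over all genes tested. The 6 that rose make up 16.2% of the 37 genes, against 15.3% of all genes tested, and the 11 that fell make up 29.7%, against 16.4%. Among genes with a mean of at least 100 CPM, a level chosen after the data were seen and met by 16 of the 37, the split differed: 5 of the 16 rose (31.2%) and 4 fell (25%), against 40.5% and 18.0% of all 1515 such genes. The libraries did not overlap in 8 genes that were higher (background 23.2%, or 45.7% at 100 CPM or more) and in 14 that were lower (background 20.6%, or 21.3%). The median log2 difference of the 37 was -0.11, against 0.06 over all genes tested and 0.20 over those of at least 100 CPM. The 37 genes therefore did not move as a block: Egln3, Slc2a3 and Hif1a led the rises, and Ldhb, Gpi1 and Pfkm the falls.

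**Figure D2:**
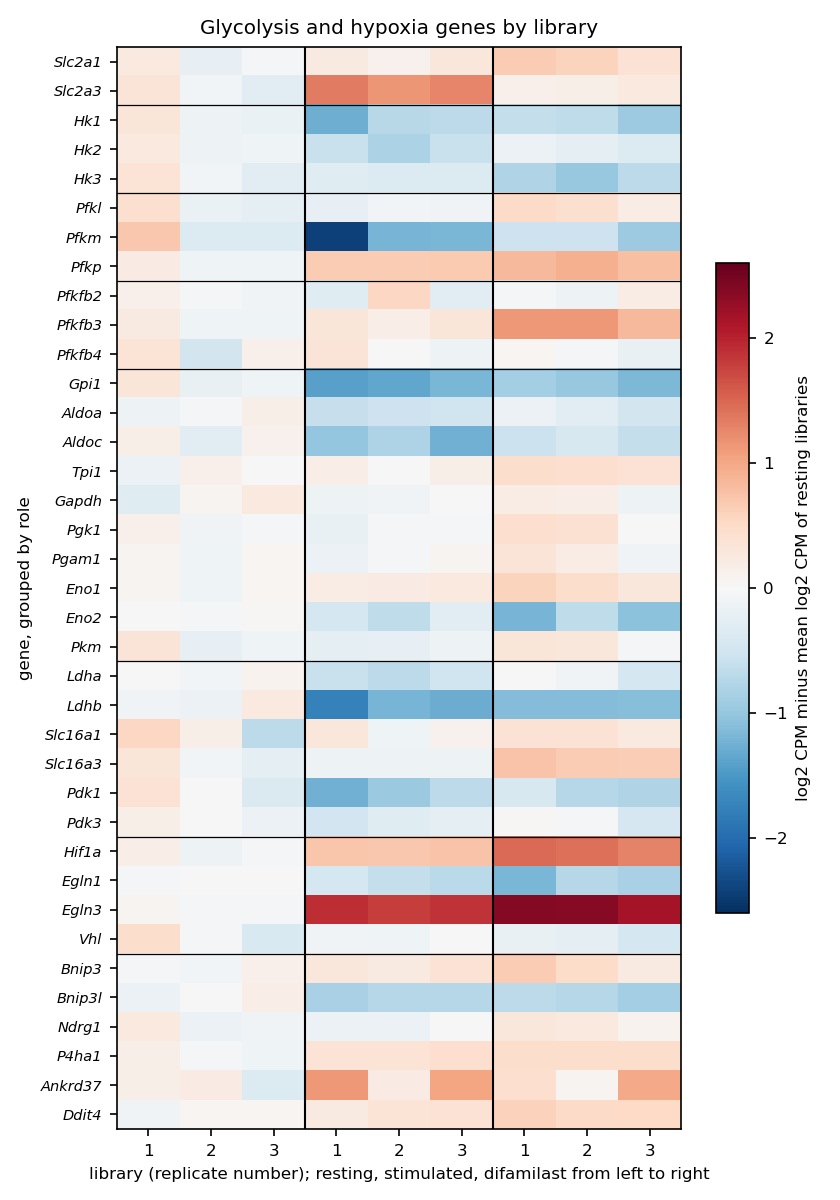
Each of the 37 genes (lines, grouped by role) in each of the 9 libraries (columns), coloured by log2 CPM minus the gene's mean log2 CPM in resting libraries. Egln3 and Slc2a3 stand out as high in the 3 stimulated libraries, and Slc2a3 lies within its resting range in the 3 difamilast libraries.

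Between the transporter genes Slc2a3 and Slc2a1, only Slc2a3, the high-affinity GLUT3 (chr6:122727809-122801640, GRCm38), was called on stimulation. The transporter gene Slc2a6, from the lists of other pathway genes below, also rose, 3.23-fold to 278 ± 17.7 CPM. Transport of glucose itself was not tested. Slc2a3 was at 87.7, 65.4 and 57.4 CPM in the resting libraries and at 177, 154 and 166 CPM in the stimulated ones. Each stimulated library was above each resting one, and the gene rose 2.36-fold (log2 1.24 ± 0.14 SE, adjusted p = 5.14e-06). The widespread transporter Slc2a1 was at 107, 77.5 and 86.4 CPM in resting and 105, 97.3 and 109 in stimulated cells. Its groups overlapped, and its log2 difference was 0.20 (95% interval -0.07 to 0.47, adjusted p = 0.25).

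Of the hexokinases, which trap glucose as its phosphate, 2 of 3 fell. Hk1 was at 47, 34.6 and 33.8 CPM in resting and 15.7, 23 and 23.7 in stimulated libraries, a 1.83-fold fall (log2 -0.87 ± 0.18, adjusted p = 0.00138). Hk2, the inducible form that HIF is known to activate, was at 59.4, 45.4 and 46.6 CPM and then at 33.7, 28.2 and 33.3, a 1.59-fold fall (log2 -0.67 ± 0.13, adjusted p = 0.00114). Neither gene's groups overlapped. Hk3, the myeloid form, had a log2 difference of -0.37 ± 0.15 with an adjusted p of 0.0744.

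The phosphofructokinases split. Pfkp rose 1.58-fold, from 225, 178 and 179 CPM to 304, 305 and 311 CPM (log2 0.66 ± 0.11, adjusted p = 0.000236). Pfkm, rare in these cells, fell 2.82-fold, from 5.03, 2.42 and 2.41 CPM to 0.571, 1.34 and 1.36 (log2 -1.50 ± 0.35, adjusted p = 0.00447). Pfkm had 379 counts over all 9 libraries and shares 18 exonic bases with Senp1 (8843 counts) on the opposite strand; strand use in the counting is not given in the sources used here. Pfkl was at -0.16 on the log2 scale (adjusted p = 0.486). None of the 3 PFKFB genes passed: Pfkfb2, Pfkfb3 and Pfkfb4 had log2 differences of 0.04, 0.26 and 0.03 (adjusted p = 0.908, 0.13 and 0.929). No PFKFB gene had an unadjusted p under 0.05, and DESeq2 called none.

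Among the 10 other glycolytic enzymes 3 fell and none rose (1 higher at an unadjusted p under 0.05, and none called higher by DESeq2). The largest fall was in Gpi1, glucose-6-phosphate isomerase (chr7:34201330-34230336, GRCm38). Gpi1 was at 375, 263 and 281 CPM in resting and at 113, 118 and 132 CPM in stimulated libraries, 2.54-fold lower (log2 -1.34 ± 0.14, adjusted p = 1.93e-06). The resting and stimulated libraries were far apart, the lowest resting value being 263 and the highest stimulated value 132. The aldolases fell together: Aldoa 1.47-fold, from 848 ± 87 to 578 ± 16.4 CPM (log2 -0.55 ± 0.11, adjusted p = 0.00128), and the minor Aldoc 2-fold, from 5.94, 4.46 and 5.83 CPM to 2.66, 3.09 and 2.27 (adjusted p = 0.00255). The 7 enzymes that did not pass ran from Eno2 at -0.45 (adjusted p = 0.139) to Eno1 at 0.22 (adjusted p = 0.112). Between them lay Pkm at -0.22, Gapdh and Pgk1 both at -0.08, Pgam1 at -0.04 and Tpi1 at 0.10. For Gapdh, often used as a reference gene, the mean was 291 ± 55.3 CPM in resting and 275 ± 14.3 in stimulated cells, and the 95% interval of the log2 difference ran from -0.37 to 0.21.

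Some of these genes have near-identical copies among the table's other symbols, to which their reads may have been assigned. The 86 copies of Gapdh held 234% of the counts of Gapdh itself, and those of Eno1, Pgk1 and Pgam1 held 69.6%, 66.9% and 40% of the counts of their genes. Adding the copies, an alternative chosen after the data were seen, left the number of genes called higher and lower at 6 and 11 on stimulation and at 4 and 1 with difamilast. Only pseudogenes and retrogenes were added. The noncoding AC160336.1, 98.3% identical to Bnip3 over 858 bases, held 5013266 counts against 8050 for Bnip3. It was not added, and its part in the Bnip3 values was not tested.

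Of the genes of lactate and pyruvate handling, 3 of 6 fell and none rose (0 higher at an unadjusted p under 0.05 and 0 in DESeq2). Ldha, which reduces pyruvate to lactate and is a classic HIF target, was at 439, 419 and 468 CPM in resting and 295, 277 and 308 CPM in stimulated libraries. The groups did not overlap, and the fall was 1.51-fold (log2 -0.59 ± 0.12, adjusted p = 0.00126). Ldhb, whose product favours the reverse reaction, fell 2.58-fold, from 11.1, 10.7 and 14.1 CPM to 3.52, 5.11 and 4.83 (log2 -1.37 ± 0.19, adjusted p = 4.92e-05). Pdk1, a kinase that restrains the use of pyruvate in mitochondria and is also a HIF target, fell 1.95-fold (log2 -0.97 ± 0.21, adjusted p = 0.00264). Pdk3, Slc16a3 and Slc16a1 had log2 differences of -0.35, -0.16 and -0.02 (adjusted p = 0.0838, 0.368 and 0.964).

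The HIF regulators gave the largest rise of all 37 genes. Egln3, the prolyl hydroxylase PHD3 and itself a HIF target (chr12:54178981-54203860, GRCm38), was at 42.4, 39.6 and 39.9 CPM in resting and 154, 141 and 149 CPM in stimulated libraries, 3.64-fold higher (log2 1.86 ± 0.10, adjusted p = 3.03e-09). Hif1a, which encodes the oxygen-regulated subunit of HIF-1 (chr12:73901375-73947530, GRCm38), was at 157, 127 and 134 CPM and then at 228, 226 and 231, 1.64-fold higher (log2 0.71 ± 0.10, adjusted p = 8.89e-05). The 3 stimulated values of each gene lay within a narrow band well above the resting ones. Egln1 (PHD2), the main hydroxylase in most cells, fell 1.51-fold from 6.57, 6.72 and 6.71 CPM to 4.85, 4.36 and 4.12 (log2 -0.60 ± 0.19, adjusted p = 0.0276). Without stimulated replicate 2 or 3 the adjusted p of Egln1 was 0.0889 or 0.105. Per kilobase, Egln3 exceeded Egln1 in each group, by 15.3 against 1.86 CPM per kb in resting and 55.5 against 1.24 in stimulated cells. Vhl, the receptor of hydroxylated HIF1α, was at -0.12 (95% interval -0.49 to 0.25, adjusted p = 0.652).

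The 6 HIF targets outside glycolysis went both ways. Ddit4 (REDD1), a brake on mTORC1, rose 1.25-fold, from 112, 124 and 124 CPM to 141, 154 and 156 (log2 0.32 ± 0.10, adjusted p = 0.0192). P4ha1, a collagen prolyl hydroxylase, rose 1.30-fold, from 45.8, 40.4 and 38.1 CPM to 53, 53.2 and 56.1 (log2 0.38 ± 0.11, adjusted p = 0.0132). Bnip3l (NIX), a receptor for the removal of mitochondria, fell 1.71-fold, from 180.3, 197 and 224 CPM to 112, 119 and 119.7 (log2 -0.78 ± 0.11, adjusted p = 4.76e-05). Its relative Bnip3 was at 0.30 (adjusted p = 0.0861), Ankrd37 at 0.75 ± 0.32 (adjusted p = 0.0907) and Ndrg1 at -0.11 (adjusted p = 0.531). The 2 small rises were fragile. Without the filter on low counts, the adjusted p was 0.0604 for P4ha1 and 0.0924 for Ddit4. P4ha1 also lost its call without resting replicate 2 (0.0658) or 3 (0.0787) or stimulated replicate 1 (0.0582) or 3 (0.0558), and Ddit4 without stimulated replicate 1 (0.0514), 2 (0.0741) or 3 (0.0762). Under plain totals both would also lie below 0, whereas Egln3, Slc2a3, Hif1a and Pfkp would stay above. Of the 17 called genes, the 14 other than P4ha1, Ddit4 and Egln1 were called under all 17 alternatives run.

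Other genes of these pathways, from lists drawn up with earlier results of these data known, gave more falls than rises on stimulation in the glycolytic, pyruvate and pentose phosphate lists. Of 21 tested genes in a list of other glycolytic isoforms and regulators, 2 rose and 6 fell in edgeR (1 and 6 in DESeq2). The transporter Slc2a6 (GLUT6) rose 3.23-fold, from 86.2 ± 16.3 to 278 ± 17.7 CPM (adjusted p = 7.71e-08), Pdk2 fell 3.19-fold (adjusted p = 4.12e-05), and Txnip, which limits glucose uptake, fell 2.02-fold from 905 ± 267 to 447 ± 7.48 CPM (adjusted p = 0.000117). Another list held 11 genes for the entry of pyruvate into mitochondria or its use there. Of these, 4 fell and none rose in edgeR, among them Pdp2 (2.24-fold), Pdha1 (1.68-fold) and Pdpr (1.48-fold). DESeq2 called 5 lower and none higher. Pdpr lost its call without stimulated replicate 2 (adjusted p = 0.0559). Of 10 genes of the pentose phosphate pathway, which branches from glucose-6-phosphate, 6 fell (7 in DESeq2) and none rose, including Taldo1 (2.05-fold, from 645 ± 111 to 314 ± 14 CPM), H6pd (2.17-fold) and Rpia (1.71-fold). Of 4 tested genes of gluconeogenesis edgeR called Slc37a4 alone, the glucose-6-phosphate transporter, 2.53-fold lower, and DESeq2 called 2 lower. These counts stand beside the 15.3% and 16.4% of all genes that rose and fell.

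Of 16 further HIF regulators 3 rose and 3 fell on stimulation in edgeR (2 and 3 in DESeq2). Of 41 further HIF target genes 7 rose and 13 fell (7 and 15 in DESeq2). The edgeR counts make up 18.8% and 18.8% of the regulators and 17.1% and 31.7% of the targets. Among all genes tested, 15.3% rose and 16.4% fell. Cited2, which competes with HIF1α for its coactivator, rose 2.54-fold (adjusted p = 8.92e-07), while Cited4 fell 3.92-fold at a low level (adjusted p = 0.000114) and Os9 fell 1.43-fold (adjusted p = 0.000766). Among these targets the repressor Bhlhe40 rose 3.09-fold, from 76.6 ± 6.86 to 237 ± 12.9 CPM (adjusted p = 1.41e-08). Hmox1, heme oxygenase 1, fell 2.79-fold, from 591 ± 74.3 to 212 ± 6.25 CPM (adjusted p = 2.15e-07).

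**Figure D3:**
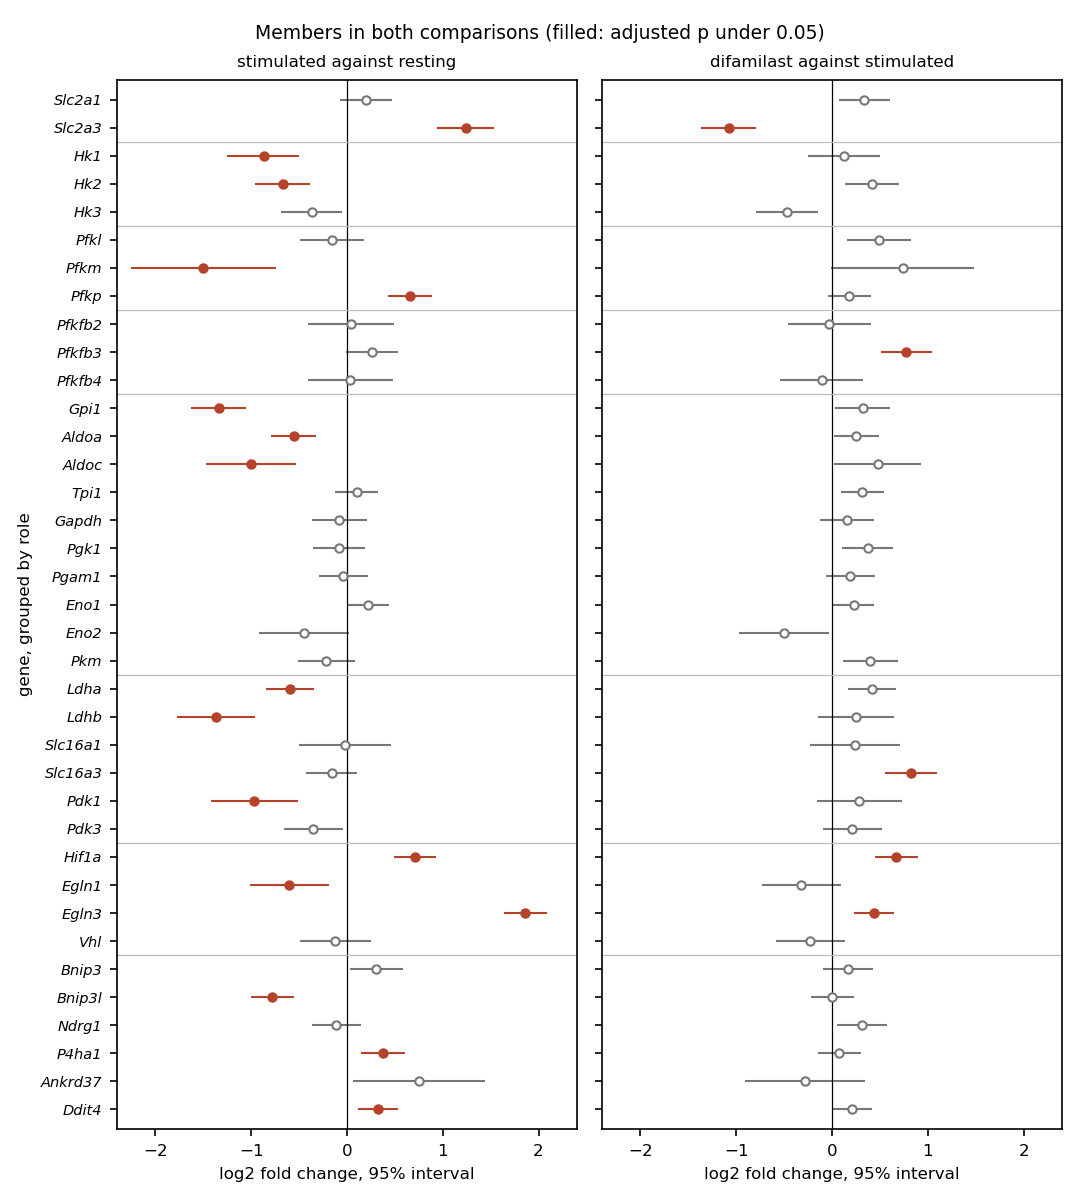
Log2 fold change of each of the 37 genes with its 95% interval, for stimulated against resting cells (left) and difamilast against stimulated cells (right), with filled points for an adjusted p under 0.05. On the left 6 filled points lie above 0 and 11 below, and on the right 4 lie above 0 and 1 below.

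With difamilast on top of the cytokines, 4 of the 37 genes rose and 1 fell. Slc16a3, Pfkfb3, Hif1a and Egln3 were higher and Slc2a3 was lower than in stimulated cells, in a comparison that asks what PDE4 inhibition did to cytokine-stimulated basophils. The 4 make up 10.8% of the 37, against 2.21% of all genes tested, and the 1 makes up 2.7%, against 1.24%. Among the genes of at least 100 CPM, 3 of the 16 rose (18.8%) and 1 fell (6.25%), against 10.8% and 3.76% of all 1515 such genes. Of the 37, 29 had a log2 difference above 0, against 49.6% of all genes tested, and the median was 0.24, against -0.00. The difamilast libraries lay wholly above the stimulated ones in 21 genes (background 12.2%, or 27.2% at 100 CPM or more) and wholly below in 4 (background 12.6%, or 20.4%). At an unadjusted p under 0.05, 17 genes were higher and 3 lower, beside 1435 and 1697 of all 21341 genes tested, and beside 317 and 203 of the 1515 of at least 100 CPM. The 3 lower genes were thus near the share of all genes. Most of these upward differences thus did not pass after adjustment over all genes. The comparison with resting cells and the comparison with difamilast share the stimulated libraries, so the values of each gene are given side by side and no relation between them is drawn.

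**Figure D4:**
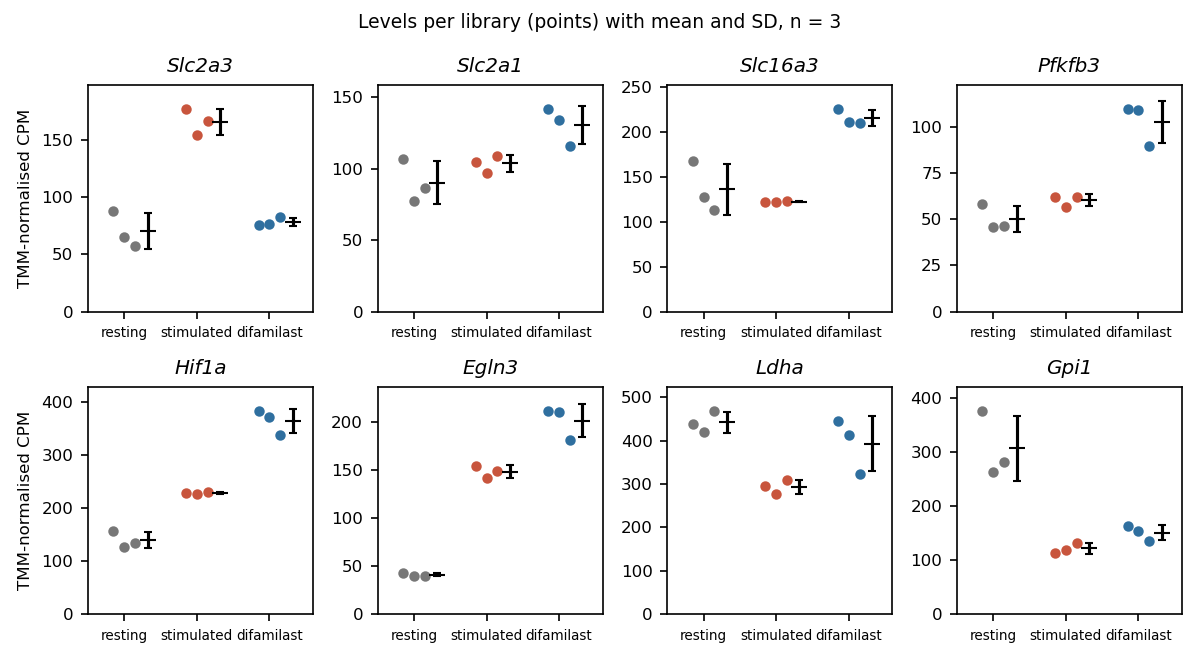
TMM-normalised CPM of 8 genes in each library (points, 3 a group), with the mean and SD of each group in black. Slc2a3 in difamilast cells lies at 75.9 to 82.6 CPM, below the 154 to 177 of stimulated cells, while Slc16a3, Pfkfb3, Hif1a and Egln3 lie above their stimulated values.

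The fall was in the glucose transporter Slc2a3. Its difamilast libraries were at 75.9, 76.9 and 82.6 CPM against 177, 154 and 166 in stimulated cells. The groups were widely apart, and the fall was 2.11-fold (log2 -1.08 ± 0.14, adjusted p = 0.000187). Against resting cells, at 70.2 ± 15.7 CPM, the log2 difference of the difamilast cells was 0.16 (95% interval -0.13 to 0.45, adjusted p = 0.41). Without resting replicate 1 that difference was 0.32 and was called (adjusted p = 0.0163), and under plain totals it would lie below 0. Slc2a1 took the other direction in level: its difamilast libraries were at 142, 134 and 116 CPM against 105, 97.3 and 109, with no overlap. The log2 difference of Slc2a1 was 0.33 ± 0.12 and did not pass (adjusted p = 0.209). The 2 transporters thus stood at 104 ± 5.78 (Slc2a1) and 166 ± 11.5 CPM (Slc2a3) in stimulated cells, and at 131 ± 13.1 and 78.5 ± 3.62 CPM with difamilast.

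The largest rise was in Slc16a3, the exporter MCT4 that carries lactate out of glycolytic cells (chr11:120948480-120960868, GRCm38). Slc16a3 was at 168, 128 and 113 CPM in resting, 122, 122 and 123 in stimulated, and 226, 211 and 209.8 in difamilast libraries. Each difamilast library was above each library of the other groups, and the rise over stimulated cells was 1.76-fold (log2 0.82 ± 0.13, adjusted p = 0.00113). Its promoter stretch above holds the fused TGACGTG and a second ACGTG, and a link between these motifs and the rise was not tested. The lesser transporter Slc16a1 was at 0.24 (95% interval -0.23 to 0.71, adjusted p = 0.692).

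Pfkfb3, the PFKFB enzyme with the strongest bias toward activating glycolysis (chr2:11471433-11554077, GRCm38), rose 1.71-fold. Its difamilast libraries were at 109.7, 109 and 89.7 CPM, above the 62.2, 56.5 and 62.2 of stimulated and the 58.5, 45.9 and 46.4 of resting libraries. The log2 difference from stimulated cells was 0.77 ± 0.12 (adjusted p = 0.00154). Its sister genes did not pass, with Pfkfb2 at -0.03 (adjusted p = 0.971) and Pfkfb4 at -0.11 (95% interval -0.54 to 0.32, adjusted p = 0.87). Pfkfb2 shares 154 exonic bases with Yod1 on the opposite strand, which had 7164 counts against its 3107.

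Hif1a rose again over its stimulated level. It was at 383, 372 and 338 CPM with difamilast, against 228, 226 and 231, a 1.60-fold rise (log2 0.67 ± 0.10, adjusted p = 0.00112). Egln3 was at 211, 210.4 and 181 CPM against 154, 141 and 149, a 1.36-fold rise (log2 0.44 ± 0.10, adjusted p = 0.0195). In both genes the difamilast libraries lay above all stimulated ones, and the 3 groups were ordered resting, stimulated, difamilast. The call on Egln3 depended on single libraries: its adjusted p was 0.0744, 0.145 or 0.0926 without stimulated replicate 1, 2 or 3, and 0.114 or 0.136 without difamilast replicate 1 or 2. Egln1 and Vhl were at -0.32 (adjusted p = 0.487) and -0.23 (95% interval -0.59 to 0.14, adjusted p = 0.609).

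None of the 3 hexokinases, 3 phosphofructokinases, 10 other glycolytic enzymes or 6 HIF targets passed with difamilast in edgeR, although 1, 1, 7 and 2 of them were higher at an unadjusted p under 0.05. DESeq2 called 6 of the 37 genes higher, adding Ldha and Tpi1. Ldha, of the lactate genes, had the smallest adjusted p among the 32 that did not pass, at 444, 412 and 323 CPM against 295, 277 and 308 in stimulated cells. The difamilast libraries were all higher, with replicate 3 close to the stimulated range, and the log2 difference was 0.42 ± 0.12 (95% interval 0.17 to 0.67, adjusted p = 0.0676). Ldha passed under several alternatives, with an adjusted p of 0.0274 in DESeq2, 0.0431 in limma-voom, 0.00994 without the filter on low counts, 0.0261 with the length trend removed, 0.0223 in a fit of only these groups, 0.0131 without resting replicate 1 and 0.00571 without difamilast replicate 3. The hexokinases diverged in sign, with Hk2 at 0.42 ± 0.13 (adjusted p = 0.119), Hk3 at -0.47 ± 0.15 (adjusted p = 0.128) and Hk1 at 0.12 (adjusted p = 0.818). Pfkl and Pfkp were at 0.49 ± 0.15 and 0.18 (adjusted p = 0.115 and 0.472), and the sparse Pfkm at 0.74 ± 0.35 (adjusted p = 0.345).

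The 10 other glycolytic enzymes had a median log2 difference of 0.28, with 7 higher and 1 lower at an unadjusted p under 0.05. Pkm, the pyruvate kinase gene, was at 622, 617 and 490 CPM against 421, 432 and 457, with no overlap (log2 0.40 ± 0.14, adjusted p = 0.159). Pgk1 was at 0.37 (adjusted p = 0.16), Gpi1 at 0.32 (adjusted p = 0.278), Tpi1 at 0.31 (adjusted p = 0.137), Aldoa at 0.25 (adjusted p = 0.301) and Eno1 at 0.23 (adjusted p = 0.307). Gapdh was at 307 ± 37.1 CPM against 275 ± 14.3, with a 95% interval of the log2 difference from -0.13 to 0.44. Eno2 was the exception in sign, at -0.50 (adjusted p = 0.303). Among the HIF targets, 2 of 6 were higher at an unadjusted p under 0.05, with Ndrg1 at 0.31 (adjusted p = 0.229), Ddit4 at 0.21 (adjusted p = 0.322) and Bnip3l at 0.00 (95% interval -0.22 to 0.23, adjusted p = 0.997).

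The number of rises with difamilast depended on single libraries and on the fit. Resting replicate 1 is in neither group compared and enters through the shared filter, scaling and spread. Without it, 13 of the 37 genes rose and 2 fell while 7.58% of all genes passed. In a fit of only these groups 12 rose and 2 fell while 7.97% of all genes passed. Both settings added Slc2a1, Hk2, Pfkl, Gpi1, Tpi1, Pkm, Ldha and Ndrg1 to the rises and Hk3 to the falls. Leaving out resting replicate 1 also added Pgk1. Without any 1 of the stimulated libraries, or without difamilast replicate 1 or 2, 3 genes rose, and without difamilast replicate 3, 6 rose. The genes also moved together within groups: difamilast replicate 1 was the highest of its group in 27 of the 37 and replicate 3 the lowest in 28, against 31.1% and 37.7% of all genes. Resting replicate 1 was the highest of its group in 26 of the 37, against 39.4% of all genes. Summed over the 37 genes, the share of TMM-scaled counts was 0.544%, 0.522% and 0.455% in the difamilast, 0.407%, 0.41% and 0.43% in the stimulated, and 0.477%, 0.423% and 0.454% in the resting libraries.

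Further HIF targets also differed with difamilast, in both directions: 3 of 41 rose and 2 fell in edgeR (5 and 2 in DESeq2), against the 2.21% and 1.24% of all genes. Vegfa, the angiogenic growth factor, was at 62.6 ± 9.11 CPM in resting and 55.4 ± 6.58 in stimulated cells and rose 2.15-fold to 119 ± 4.11 with difamilast (adjusted p = 7.21e-05). Mxi1, an antagonist of MYC, rose 2.46-fold from 32.3 ± 0.703 to 79.4 ± 6.85 CPM (adjusted p = 1.4e-05), near its resting 84.1 ± 13.1. The falls, named after their values were seen, were Bhlhe40 (log2 -0.56, adjusted p = 0.00457, or 0.0514 without difamilast replicate 2) and Sap30 (log2 -0.70, adjusted p = 0.022). Of the 16 further HIF regulators edgeR called Cited2 alone (DESeq2 called 2 higher and 1 lower), 1.39-fold lower at 180.4 ± 7.56 against 251 ± 10.1 CPM (adjusted p = 0.0462). Cited2 kept this call in 9 of 17 alternatives, with an adjusted p from 0.000358 to 0.195, and lost it without any 1 of the stimulated or difamilast libraries. Neither edgeR nor DESeq2 called a gene in the remaining lists. Of the 21 other glycolytic genes tested, 0 were higher and 1 lower at an unadjusted p under 0.05 in edgeR. These numbers were 0 and 1 of 11 for mitochondrial pyruvate entry and use. They were 0 and 0 of 10 for pentose phosphate and 1 and 0 of 4 for gluconeogenesis.

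Against resting cells, 11 of the 37 genes were higher and 9 lower in difamilast cells, with 16.4% of all genes higher and 16.4% lower (32.8% in either direction). Among the genes of at least 100 CPM, 8 of the 16 were higher (50%) and 3 lower (18.8%), against 43.5% and 15% of all 1515 such genes. Of the 37, the libraries did not overlap in 11 genes that were higher (background 23.0%) and in 12 that were lower (background 19.8%). This comparison holds cytokines and drug together and shares its libraries with the others. Egln3 was 4.94-fold and Hif1a 2.61-fold higher (adjusted p = 3.28e-10 and 8.55e-08), and Pfkfb3, Pfkp and Slc16a3 were 2.05-fold, 1.79-fold and 1.58-fold higher. Slc2a1 was 1.45-fold higher (adjusted p = 0.00424), as was Ddit4 (adjusted p = 0.000596), and P4ha1, Bnip3, Eno1 and Tpi1 were 1.33-fold to 1.38-fold higher. Under plain totals, which lower these log2 differences by 0.51, P4ha1, Bnip3, Eno1 and Tpi1 would lie below 0. Lower were Ldhb (2.17-fold), Gpi1 (2.04-fold), Eno2 (1.93-fold), Egln1 (1.89-fold), Hk3 (1.79-fold), Bnip3l (1.71-fold), Hk1 (1.68-fold), Pdk1 (1.61-fold) and Aldoa (1.23-fold). Ldha was at -0.17 (95% interval -0.42 to 0.08, adjusted p = 0.299). The weakest calls were lost when single libraries were left out. Aldoa (adjusted p = 0.0472) was at 0.12 without resting replicate 3, 0.0777 or 0.075 without stimulated replicate 2 or 3, and 0.108 or 0.165 without difamilast replicate 2 or 3. Bnip3 was at 0.0573 without resting replicate 2 and 0.0649 without difamilast replicate 1. Pdk1 was at 0.0613 without resting replicate 1 and at 0.0745 or 0.0669 without difamilast replicate 2 or 3.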

How the data were processed

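The authors deposited 1 table of raw read counts per gene symbol for 9 bulk RNA-seq libraries. Per the labels' protocols, polyadenylated RNA was copied to cDNA, amplified over the whole transcriptome by the TAS-Seq procedure, fragmented and sequenced on a NovaSeq instrument. No molecular identifiers are mentioned, so 1 molecule can be counted more than once. Cutadapt 4.1, Bowtie2 2.4.5 and the build GRCm38 are listed, per the submitters' processing notes, without their roles; how reads were counted, with which annotation and strand setting, is not given in the sources used here. Every column belonged to a labelled sample.

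The counts were tested with edgeR 4.0.16 (R 4.3.3) by the quasi-likelihood test, with robust dispersion, TMM scaling, genes kept by filterByExpr (at least 10 counts, total at least 15) and all 9 libraries in 1 fit with 6 residual degrees of freedom, and the steps were tested on simulated data. P-values were adjusted by Benjamini-Hochberg over 21341 genes and called at 0.05. Intervals are 95%. The labels do not state separate cultures, so p-values reflect only how far these samples differed, and that spread may be technical. No replicate pair differed by as little as sampling noise (chi-square per degree of freedom 4.54 or more).

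The genes, lists and promoter motifs were chosen with earlier results of these data known. All 37 genes are named, with up to 3 called genes of smallest p per other pathway list and comparison, except that some results are not reported here. Alternatives were DESeq2 1.42.0, no filter on low counts, RLE scaling, limma-voom (limma 3.58.1), the replicate block, a fit of the groups compared, removal of a lowess trend (span 0.3) with transcript length, and each library left out. Adding near-identical pseudogene and retrogene copies (at least 95% identity over 200 bases) was chosen after seeing the data. Transcript lengths and positions come from GENCODE vM21, matched by 34294 of 35673 symbols. Same-numbered libraries deviated together with correlations from -0.40 to 0.42, so the numbers were not used as pairs.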

Additional observations from a re-analysis of the deposited data

How the results depend on the processing

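On stimulation, the number of the 37 genes that rose stayed between 4 and 8 and the number that fell between 10 and 13 over the 17 alternatives. With difamilast against stimulated cells, the rises numbered 7 with no low-count filter and 12 when only the groups compared were fitted, and ran from 3 to 13 when each library was left out. The falls numbered 2 with the length trend removed and 2 in the fit of only the groups compared, and ran from 1 to 2 over the libraries left out. Against resting cells the difamilast counts ran from 10 to 16 higher and 7 to 11 lower. With the replicate block, 6 rose and 11 fell on stimulation, 4 rose and 1 fell with difamilast, and 11 rose and 8 fell against resting cells; the numbers did not pair the samples, so they were not used as pairs. The block ended the calls on Aldoa against resting cells (adjusted p = 0.0778) and on Cited2 with difamilast (0.058). Aldoa was also lost with no low-count filter (0.0524) and when only the groups compared were fitted (0.126), and Cited2 under RLE scaling (0.0586). The cause of these changes was not tested.

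Sign changes among the named genes occurred only at log2 differences that were not called. On stimulation, Pfkfb2 was at -0.01 and Pfkfb4 at -0.01 in DESeq2, and they were at -0.01 and -0.02 under RLE scaling; Slc16a1 was at 0.04 with the replicate block and 0.03 with the length trend removed. With difamilast against stimulated cells, H6pd was at 0.01 in DESeq2, 0.01 under RLE scaling, 0.02 without the filter and 0.00 in limma-voom, and Pfkfb2 was at 0.00 with the replicate block. Bnip3l was at -0.00 in limma-voom, -0.04 with the length trend removed and -0.01 with copies added. Against resting cells, Pfkfb2 was at -0.02 in DESeq2, -0.02 under RLE scaling and -0.00 in limma-voom. Over the libraries left out, the stimulation values ran from -0.31 to 0.05 (Pfkl), -0.01 to 0.16 (Tpi1), -0.29 to 0.21 (Slc16a1), -0.32 to 0.11 (Vhl), -0.30 to 0.19 (Pfkfb2), -0.23 to 0.21 (Pfkfb4) and -0.25 to 0.02 (Gapdh). Those of difamilast against stimulated cells ran from -0.02 to 0.23 (Hk1), -0.21 to 0.02 (Pfkfb4), -0.03 to 0.06 (Bnip3l), -0.14 to 0.13 (H6pd), -0.18 to 0.32 (Pfkfb2) and -0.04 to 0.23 (Pdp2). Those against resting cells ran from -0.34 to 0.11 (Pfkfb4), -0.09 to 0.18 (Gapdh), -0.21 to 0.01 (Mxi1), -0.08 to 0.08 (Pfkfb2) and -0.04 to 0.46 (Slc16a1). With 1 count worth 0.0297 to 0.127 CPM, depth limits chiefly Pfkm, Ankrd37 and Eno2.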
